A study of Mus musculus with 14 samples.

Results

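Matrix metalloproteinases (genes Mmp), the related ADAMTS proteases (Adamts) and the tissue inhibitors of metalloproteinases (Timp) were followed in RNA sequencing of mouse neck skin. The genes were selected by symbol, and 46 of the 35327 gene symbols in the table belong to these families: 23 Mmp, 19 Adamts and 4 Timp genes. Neck skin of C57BL/6J mice labelled female gave 14 libraries in 5 groups. The mice of the antibody experiment, 6 weeks old, received MC903 (the vitamin D analogue calcipotriol, applied to produce a dermatitis), 1 nmol a day in 100 µL on shaved skin for 6 days, together with intraperitoneal injections of 20 µg of antibody every other day that began with 3 injections before MC903. In 3 of these mice the antibody was MAR1, which binds the high-affinity receptor for IgE and is known as a basophil-depleting antibody, and in 3 it was an isotype control. In the deletion experiment, mice of 6 to 7 weeks received MC903 for the same 6 days without injections. Of these, 3 carried Pdgfra-Cre with floxed Il4ra (cKO), so that the IL-4 receptor alpha chain is lost in cells that express Pdgfra, such as dermal fibroblasts, and 3 carried floxed Il4ra without Cre (fl/fl). The remaining 2 libraries came from untreated wild-type skin at 6 weeks. Whether vehicle had been applied to the untreated skin is not stated, and the pair carry almost the same library name, with no word on whether 2 animals were used. Nothing states for any group that each library is a separate animal, and p-values therefore measure only the spread between these libraries.

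Matrix metalloproteinases are zinc-dependent enzymes that cut collagens, elastin, proteoglycans and many secreted signalling proteins. Most are made as inactive proenzymes that other proteases activate, and the 4 TIMP proteins block them by occupying the active site. The ADAMTS enzymes are secreted relatives that cut proteoglycans such as versican and aggrecan or trim procollagens during fibril assembly. In skin, fibroblasts are known as the main source of the gelatinase MMP2 and of the membrane-type enzyme MMP14, which activates it, while wounded or inflamed epidermis, macrophages and neutrophils add stromelysins, collagenases, metalloelastase and the gelatinase MMP9.

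A run of 10 Mmp genes sits side by side on mouse chromosome 9, in the order Mmp13, Mmp12, Mmp1b, Mmp3, Mmp1a, Mmp10, Mmp8, Mmp27, Mmp20 and Mmp7, with no other protein-coding gene between them in RefSeq. Several of these genes are textbook targets of AP-1 (dimers of Fos and Jun proteins), whose binding element reads TGANTCA on either strand. Promoter sequences from RefSeq on build GRCm38.p6, 300 bases from 250 before to 50 after each annotated start, were found for 32 of the 46 genes. The element was present in at least 1 promoter of 8 of the 10 clustered genes and of 0 of the other 22 genes, against 8.97% of all 27025 genes with a promoter in the same windows. With only the 200 bases before the start the counts in the family were the same, against 6.36% of all genes. A match describes the sequence and is no evidence of binding. The 120 bases before the start are printed 5′ to 3′ on the gene's own strand, with the element in capitals. They are shown for some of the clustered genes with the element and for Mmp27 and Timp1, which lack it. Mmp13 lies at chr9:7272394-7272513, plus strand, Mmp12 (the second of its annotated starts) at chr9:7347254-7347373, plus strand, Mmp1b at chr9:7388027-7388146, minus strand, Mmp3 at chr9:7445702-7445821, plus strand, and Mmp10 at chr9:7502222-7502341, plus strand. Mmp27, a neighbour without the element, lies at chr9:7571276-7571395, plus strand, and the inhibitor gene Timp1, also without it in this window, at chrX:20870046-20870165, plus strand.
Mmp13: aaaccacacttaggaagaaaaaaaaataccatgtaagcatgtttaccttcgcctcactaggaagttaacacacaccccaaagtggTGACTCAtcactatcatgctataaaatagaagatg
Mmp12: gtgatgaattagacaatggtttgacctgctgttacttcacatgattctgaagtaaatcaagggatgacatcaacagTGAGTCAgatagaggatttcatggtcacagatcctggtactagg
Mmp1b: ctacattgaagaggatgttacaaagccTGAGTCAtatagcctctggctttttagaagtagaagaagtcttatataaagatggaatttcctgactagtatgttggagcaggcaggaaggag
Mmp3: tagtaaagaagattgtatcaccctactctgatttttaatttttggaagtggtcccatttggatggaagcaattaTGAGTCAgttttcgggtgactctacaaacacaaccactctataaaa
Mmp10: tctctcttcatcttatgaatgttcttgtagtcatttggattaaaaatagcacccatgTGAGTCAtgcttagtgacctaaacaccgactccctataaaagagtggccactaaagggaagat
Mmp27: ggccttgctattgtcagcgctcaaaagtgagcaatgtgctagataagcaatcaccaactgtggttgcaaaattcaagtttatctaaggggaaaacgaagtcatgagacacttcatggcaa
Timp1: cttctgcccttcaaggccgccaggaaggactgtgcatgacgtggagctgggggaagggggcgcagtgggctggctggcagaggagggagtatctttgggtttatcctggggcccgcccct
The element began 35 bases before the annotated start in Mmp13, 46 in Mmp3, 63 in Mmp10 and 93 in Mmp1b. In Mmp12 the element began 44 bases before the second start and was absent from the window of the first. It also stood 73 bases before the start of Mmp1a, 95 before that of Mmp20 and 63 before 1 of the starts of Mmp7.

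The libraries differed in depth and in content, and these differences accompany every comparison below. Totals ran from 5728921 to 10582016 counts in the MAR1-labelled libraries, 34312206 to 35580114 with isotype, 16464897 to 30811457 in cKO, 45120038 to 47995950 in fl/fl and 37499130 to 55291463 in untreated skin. Olfactory and vomeronasal receptor genes, which are known from the sensory epithelia of the nose, took 3.88% to 9.38% of counts in the MAR1-labelled libraries, against 0.269% to 0.439% with isotype, and 0.467% to 2.58% in cKO, against 0.0479% to 0.0769% in fl/fl. Mitochondrial transcripts took 0.129% to 0.344% in the MAR1-labelled libraries, against 2.12% to 2.33% with isotype. Although every mouse is labelled female, 4 Y-linked genes summed to 408 to 719.7 CPM in the MAR1-labelled libraries, against 20.0 to 36.5 with isotype, and to 423, 41.6 and 229 CPM in cKO, against 4.30 to 8.03 in fl/fl. Il4ra, the deleted gene, had 70.7, 67.9 and 14.5 CPM (the usual count scaled to library size, here by TMM) in cKO, against 215, 145 and 176 CPM in fl/fl (log2 -1.81 ± 0.57, adjusted p = 0.043, edgeR). It was also lower in the MAR1-labelled libraries, which carry no deletion by their label, at 45.8, 23.3 and 9.02 CPM, against 196, 179 and 193 CPM with isotype (log2 -2.86 ± 0.60, adjusted p = 0.002). The basophil protease gene Mcpt8 had 18, 31.2 and 27.4 CPM in the MAR1-labelled libraries, against 6.71, 4.41 and 3.97 CPM with isotype (adjusted p = 0.024, edgeR). In cKO Mcpt8 had 22, 12.1 and 26 CPM, against 3.60, 12.9 and 2.69 CPM in fl/fl (adjusted p = 0.14, edgeR). Whether the antibody depleted basophils was not tested. The libraries with the MAR1 label are called MAR1-labelled throughout. All 7 keratinocyte and all 8 dermal fibroblast markers had counts in every group. Skeletal muscle genes took 0.93% to 5.1% of counts in fl/fl, against 0.0023% to 0.372% in cKO, and salivary gland genes reached 1.93% in 1 fl/fl library.

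Levels of different genes can be set side by side only per length, and the following values are mean CPM per kilobase of annotated exon (GENCODE M21). Mmp2 led with isotype at 183, followed by Mmp3 at 152, Timp2 at 96.5, Mmp14 at 78.2 and Mmp13 at 54.9 CPM per kilobase. In untreated skin the inhibitor gene Timp2 was first at 193, then Mmp2 at 97.7, Timp3 at 41.7, Mmp14 at 41.2 and Mmp3 at 27.1 CPM per kilobase, while Mmp13 stood at 0.274. Timp1 was first in the MAR1-labelled libraries at 136, ahead of Mmp3 at 62.3 and Mmp14 at 40.8, and Mmp2 stood ninth at 6.64 CPM per kilobase. Mmp14 led in cKO at 85.9, and Timp2 in fl/fl at 75.4 CPM per kilobase. These orders are of group means, and the leads with isotype, in cKO and in fl/fl did not hold in every library. Before scaling to length, Mmp14 had 809 CPM in cKO library 1, against 401 and 326 CPM in libraries 2 and 3. Mmp13 reached 293 CPM in fl/fl library 3. Together the 46 genes took 0.123% to 0.170% of counts in the MAR1-labelled libraries, against 0.279% to 0.316% with isotype, and 0.134% to 0.255% in cKO, against 0.0750% to 0.165% in fl/fl and 0.234% to 0.286% in untreated skin. The isotype shares did not overlap those of any other group except untreated skin. The enamel protease gene Mmp20 did not pass the filter on low counts, with 2 counts in 1 MAR1-labelled library and none elsewhere, which leaves 45 genes tested.

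**Figure D1:**
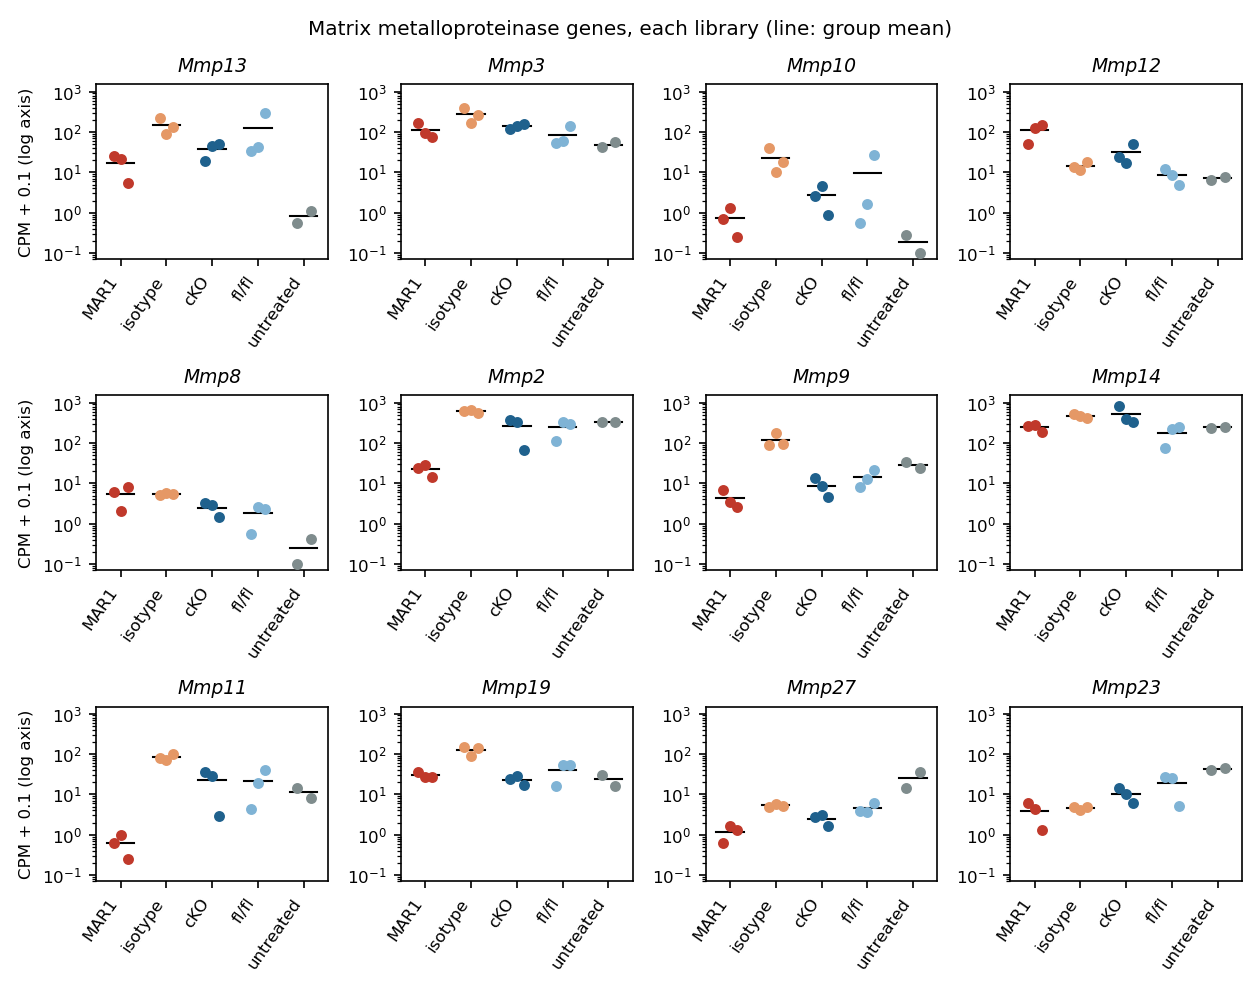
Values of 12 Mmp genes in each library, as CPM plus 0.1 on a log axis, with groups along the horizontal axis and a line at each group's mean of 2 or 3 libraries. Mmp13 lies near 1 CPM in both untreated libraries and above 5 CPM in all 12 MC903-treated ones, and Mmp2 lies below 30 CPM in the 3 MAR1-labelled libraries only.

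The comparison of isotype-injected MC903 skin with untreated skin describes the family after MC903 (the mice had also received antibody). Of the genes that passed, the interstitial collagenase gene Mmp13 had the largest rise, and with it rose the stromelysin gene Mmp3, Mmp19 and the versican- and aggrecan-cutting protease gene Adamts4. Mmp23, Mmp27 and the procollagen N-proteinase gene Adamts14 fell. In all, 4 of 45 genes rose and 3 fell at an adjusted p under 0.05 (edgeR quasi-likelihood test, Benjamini-Hochberg over all 20939 genes), where 1.35% of all genes tested rose and 1.72% fell (3.08% together). The median log2 fold change of the 45 genes was 0.72, and 0.74 with genes absent from untreated skin set at their bound, against 0.11 over all genes.

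Mmp13 had 221, 87 and 132 CPM with isotype, against 0.443 and 1.02 CPM in untreated skin. Every isotype library was far above both untreated ones, a 201-fold difference (log2 7.65 ± 1.27, adjusted p = 0.01, edgeR). Mmp3, which cuts proteoglycans and fibronectin and activates other proenzymes, had 395, 168 and 257 CPM with isotype, against 41.5 and 56.1 CPM in untreated skin (5.61-fold, log2 2.49 ± 0.52, adjusted p = 0.024). The lowest isotype library stood above the higher untreated one. Mmp19 had 146, 87.7 and 138 CPM with isotype, against 30.7 and 16.2 CPM (5.30-fold, adjusted p = 0.025). Of its exon bases 22.3% overlap Tmem198b on the opposite strand, and reads of the pair may not be separable. Adamts4 had 23.5, 23.1 and 14.5 CPM with isotype, against 1.03 and 1.35 CPM (17.1-fold, log2 4.09 ± 0.91, adjusted p = 0.03). For both genes the groups lay well apart. Mmp23, which has a short membrane-anchored form, had 4.82, 3.89 and 4.65 CPM with isotype, against 39.5 and 45.7 CPM in untreated skin (9.55-fold lower, adjusted p = 0.021). Mmp27 fell to 4.88, 5.76 and 5.03 CPM with isotype, against 14.6 and 34.9 CPM (adjusted p = 0.047), and Adamts14 to 6.59, 7.98 and 5.61 CPM, against 20.3 and 26.2 CPM (adjusted p = 0.034).

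Several further genes did not overlap between isotype and untreated skin but missed the threshold. The stromelysin gene Mmp10 had 39.7, 10.3 and 18.3 CPM with isotype, against 0.177 and 0 CPM (adjusted p = 0.053, edgeR), and the collagenase gene Mmp8, known from neutrophils, had 4.91, 5.62 and 5.26 CPM, against 0 and 0.309 CPM (adjusted p = 0.064). The gelatinase gene Mmp9 had 86.9, 173 and 92.5 CPM, against 33.6 and 23.5 CPM (adjusted p = 0.07), and Mmp11, a stromelysin of stromal cells, had 80.2, 72 and 97.9 CPM, against 14.5 and 8.04 CPM (adjusted p = 0.15). Of the 45 genes, 22 lay wholly above and 11 wholly below untreated skin, where 26.2% and 22.6% of all genes did so (48.8% in either direction). Mmp1a and Mmp1b, the mouse counterparts of human collagenase 1, were at the edge of detection. Mmp1b had 72 counts in the 3 isotype libraries and 0 in untreated skin, at least 11.1-fold higher, and Mmp1a had 27 counts against 0, at least 4.15-fold higher (floors of 3 counts per library). Of the inhibitors, Timp1 had 47.2, 18.3 and 40.6 CPM with isotype, against 10.8 and 6.88 CPM (log2 2 ± 0.62, adjusted p = 0.1). Timp2 had a log2 fold change of -1, Timp3 of -0.93 and Timp4 of 0.06, and none of the 4 passed.

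Some dermal fibroblast and adipocyte markers fell, as Mmp23, Mmp27 and Adamts14 did. No neutrophil, macrophage, endothelial or skeletal muscle marker passed, and 1 of 7 keratinocyte markers rose. Of all genes tested, 1.35% rose and 1.72% fell. The 8 dermal fibroblast markers, all with counts in both groups, took 0.142% to 0.199% with isotype, against 0.466% to 0.575% in untreated skin, and 4 of them fell. The 5 adipocyte markers, also all with counts, took 0.0678% to 0.101% with isotype, against 0.29% to 0.393% in untreated skin, and 3 fell. Their part in the decreases of Mmp23, Mmp27 and Adamts14 was not tested. The count of 7 rested on all libraries being kept. It was 1, 2 and 1 without isotype library 1, 2 and 3, 0 without untreated library 1 (17 at an unadjusted p under 0.05, edgeR) and 2 without untreated library 2. It was 0 in edgeR with the untreated libraries summed to 1 (14 at an unadjusted p under 0.05) and 13 in DESeq2. Without untreated library 1 the call of Mmp13 was also lost, and it held without each of the other libraries of this comparison.

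The floxed control mice, which received no injections, were set against the same untreated libraries, so the comparison shares its reference with the one above. Mmp13 again rose and Mmp27 again fell, and these were the only genes of the family past the threshold, 1 of 45 in each direction, where 0.769% of all genes rose and 0.95% fell (1.72% together). Mmp13 had 33.3, 41.7 and 293 CPM in fl/fl, against 0.443 and 1.02 CPM in untreated skin (168-fold, log2 7.40 ± 1.25, adjusted p = 0.013, edgeR), with fl/fl library 3 well above the other two. Mmp27 had 3.74, 3.48 and 5.94 CPM in fl/fl, against 14.6 and 34.9 CPM (adjusted p = 0.041). Mmp3 stood at 52, 61.1 and 139 CPM in fl/fl, and 1 of the 3 libraries lay between the 2 untreated ones (log2 0.79 ± 0.48, adjusted p = 0.41). Mmp10 had 0.464, 1.56 and 26.2 CPM and Adamts4 1.97, 3.77 and 21.5 CPM in fl/fl, in both cases highest in library 3 (adjusted p = 0.096 and 0.096). Timp3 is an inhibitor held in the matrix that also blocks ADAMTS enzymes, and 21.3% of its exon bases overlap Syn3 on the opposite strand. It had 80.6, 118 and 57.7 CPM in fl/fl, against 256 and 424 CPM (log2 -1.99 ± 0.48, adjusted p = 0.054), and Timp2 had 219.8, 377 and 285 CPM, against 828 and 678 CPM (log2 -1.36 ± 0.42, adjusted p = 0.11). Timp1 had 35.3, 50.7 and 39.3 CPM in fl/fl, against 10.8 and 6.88 CPM (log2 2.24 ± 0.62, adjusted p = 0.084). The procollagen N-proteinase gene Adamts3 had 0 counts in fl/fl and 73 in untreated skin, at least 9.04-fold lower. Wholly above untreated skin were 6 of the 45 genes and wholly below it 14, where 12.6% and 15.4% of all genes were so placed (28% in either direction). The count of 2 was 0 in edgeR without untreated library 2 (11 at an unadjusted p under 0.05), 3 without untreated library 1, 1 without fl/fl library 2, 0 in an edgeR fit of fl/fl and untreated libraries alone (10 under an unadjusted p of 0.05) and 11 in DESeq2. Mmp13 lost its call without untreated library 2, and Mmp27 without fl/fl library 1, fl/fl library 2 or untreated library 2.

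**Figure D2:**
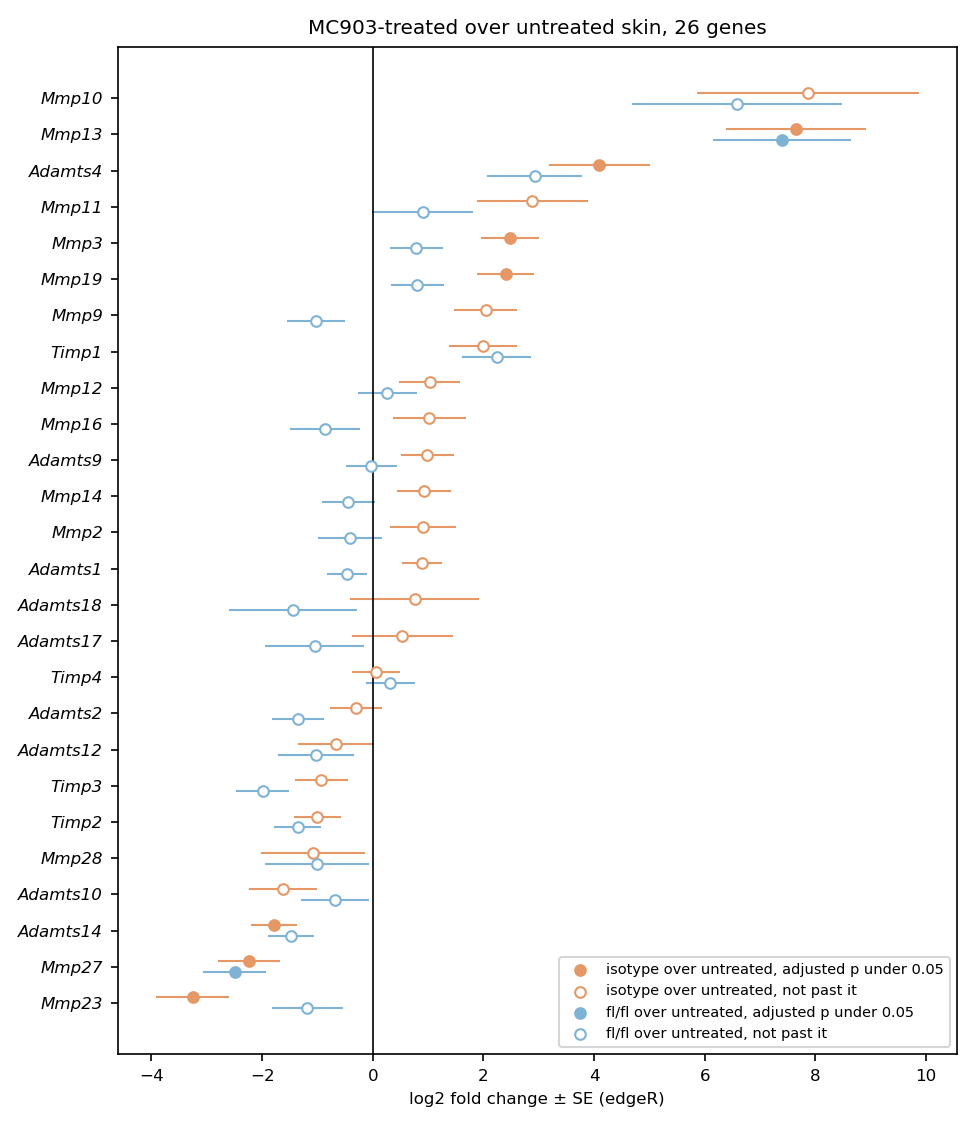
Log2 fold changes with standard errors of 26 genes, isotype over untreated and fl/fl over untreated, with the same 2 untreated libraries under both. Filled circles passed an adjusted p of 0.05. Mmp13 is filled at 7.65 and 7.40, and Mmp27 at -2.24 and -2.49.

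The MAR1-labelled libraries were compared with isotype to describe the effect of the antibody in MC903-treated skin. Both gelatinase genes, Mmp2 and Mmp9, fell, as did Mmp11, the collagenase gene Mmp13, the stromelysin genes Mmp3 and Mmp10, and Mmp19, Mmp27 and Mmp28. The metalloelastase gene Mmp12, the membrane-type gene Mmp16 and the inhibitor genes Timp1 and Timp4 rose, while Timp2 and Timp3 fell. In all 7 of 45 genes rose and 15 fell, where 22.6% of all genes tested rose and 26.5% fell, 49% together. With RLE scaling, which moved the median of all genes by 0.59 on the log2 scale, the 22 calls split into 10 higher and 12 lower, and 19 of them were the same genes. The median log2 fold change of the 45 genes was -0.22, against 0 over all genes. The groups did not overlap, with the MAR1-labelled libraries higher, for 11 of the 45 genes, and with these libraries lower for 19, where 32.1% and 36.4% of all genes were so placed (68.6% in either direction). In bulk tissue, fewer cells of a type and less RNA per cell cannot be told apart.

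Mmp2, the fibroblast gelatinase, had 24.4, 28.2 and 14.6 CPM in the MAR1-labelled libraries, against 637, 655 and 559 CPM with isotype. The groups were far apart, with little spread inside either, a 27.5-fold decrease (log2 -4.78 ± 0.61, adjusted p = 0.00027, edgeR). Mmp9, a gelatinase that neutrophils, macrophages and keratinocytes are known to make, had 6.62, 3.32 and 2.55 CPM in the MAR1-labelled libraries, against 86.9, 173 and 92.5 CPM with isotype (27.9-fold lower, log2 -4.80 ± 0.56, adjusted p = 0.00027). Mmp11 had 0.516, 0.906 and 0.150 CPM, against 80.2, 72 and 97.9 CPM with isotype, the largest decrease of the 26 genes named here (150.2-fold, log2 -7.23 ± 1.10, adjusted p = 0.00043). Mmp14, the cell-surface activator of the MMP2 proenzyme, had 261, 286 and 182 CPM, against 516, 461 and 422 CPM with isotype. All 3 MAR1-labelled libraries lay below the isotype ones, and the difference did not pass (log2 -0.94 ± 0.43, adjusted p = 0.083). All 8 dermal fibroblast markers had counts in both groups, with overlapping summed shares of 0.129% to 0.153% in the MAR1-labelled libraries, against 0.142% to 0.199% with isotype, and 3 of them rose while 4 fell. The 7 keratinocyte markers took 0.38% to 0.761% in the MAR1-labelled libraries, against 1.89% to 3.58% with isotype, and 6 of them fell. The 6 endothelial markers took 0.114% to 0.162%, against 0.0303% to 0.0338% with isotype, with 1 higher and 2 lower. Of all genes tested, 22.6% rose and 26.5% fell in this comparison. The part of these cell types in the decreases was not tested.

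Among the clustered genes, Mmp13 had 25.6, 20.8 and 5.41 CPM in the MAR1-labelled libraries, against 221, 87 and 132 CPM with isotype (8.44-fold lower, log2 -3.08 ± 0.84, adjusted p = 0.01, edgeR). Even the lowest of these values was above both untreated libraries. Outside the cluster, Mmp19 had 35.8, 26.6 and 26.9 CPM in the MAR1-labelled libraries, against 146, 87.7 and 138 CPM with isotype (4.17-fold lower, adjusted p = 0.0021), and the epidermal gene Mmp28 had 0.0859, 0.805 and 0.751 CPM, against 5.51, 6.60 and 3.45 CPM (9.69-fold lower, adjusted p = 0.015). Mmp10 had 0.602, 1.21 and 0.150 CPM, against 39.7, 10.3 and 18.3 CPM with isotype (33.5-fold lower, log2 -5.07 ± 1.48, adjusted p = 0.014). Mmp3 had 165, 94.7 and 76.8 CPM, against 395, 168 and 257 CPM, close at the edges of the groups (2.44-fold lower, adjusted p = 0.024). Mmp1b had 0 counts in the MAR1-labelled libraries and 72 with isotype, at least 2.04-fold lower (floor of 3 counts per library). Mmp27 fell 4.88-fold to 0.516, 1.51 and 1.2 CPM in the MAR1-labelled libraries, against 4.88, 5.76 and 5.03 CPM with isotype (adjusted p = 0.0046, edgeR). Mmp8 did not pass, at 5.84, 2.01 and 7.82 CPM in the MAR1-labelled libraries, against 4.91, 5.62 and 5.26 CPM with isotype (adjusted p = 0.99). Of 8 neutrophil markers all had counts in both groups, and their summed share was 0.0379% to 0.0697% in the MAR1-labelled libraries, against 0.00363% to 0.00539% with isotype. Of the 8, 3 rose and 0 fell, where 22.6% of all genes rose and 26.5% fell. The part of neutrophils in the decrease of Mmp9 was not tested. Within this run of neighbours Mmp12 alone rose in the test.

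Mmp12, the elastase of macrophages, had 50.4, 128 and 153 CPM in MAR1-labelled libraries 1, 2 and 3, against 13.7, 11.4 and 18 CPM with isotype. All 3 lay above every isotype library (7.67-fold higher, log2 2.94 ± 0.51, adjusted p = 0.00062, edgeR). The receptor gene share of the same MAR1-labelled libraries was 3.88%, 7.55% and 9.38%, in the same order as Mmp12. The summed share of 8 macrophage markers, all with counts in both groups, was 0.0556% to 0.202% in the MAR1-labelled libraries, against 0.161% to 0.198% with isotype. Of the 8, 5 fell and 0 rose (median log2 fold change -1.99), where 26.5% of all genes fell and 22.6% rose. Mmp16, a membrane-type enzyme, had 8.16, 9.66 and 9.47 CPM, against 2.03, 3.54 and 2.51 CPM with isotype (3.37-fold higher, adjusted p = 0.025). Adamts18 had 7.73, 15.9 and 23.6 CPM in the MAR1-labelled libraries, against 2.06, 0.922 and 1.93 CPM (9.59-fold, adjusted p = 0.027), and Adamts17 had 3.09, 7.95 and 7.21 CPM, against 1.71, 0.663 and 0.964 CPM (5.44-fold, adjusted p = 0.029). Adamts14 rose 2.31-fold to 22.8, 11.6 and 12.2 CPM in the MAR1-labelled libraries, against 6.59, 7.98 and 5.61 CPM with isotype (adjusted p = 0.02, edgeR). The embryonic gene Mmp21, which did not pass, had 1.63, 4.33 and 5.41 CPM, against 0.285, 0.0288 and 0.0584 CPM. Of the 7 genes that rose, Mmp12 and Adamts18 were ordered over the 3 libraries as the receptor gene share was, Timp1 and Timp4 in the opposite order, and Mmp16, Adamts14 and Adamts17 in neither.

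**Figure D3:**
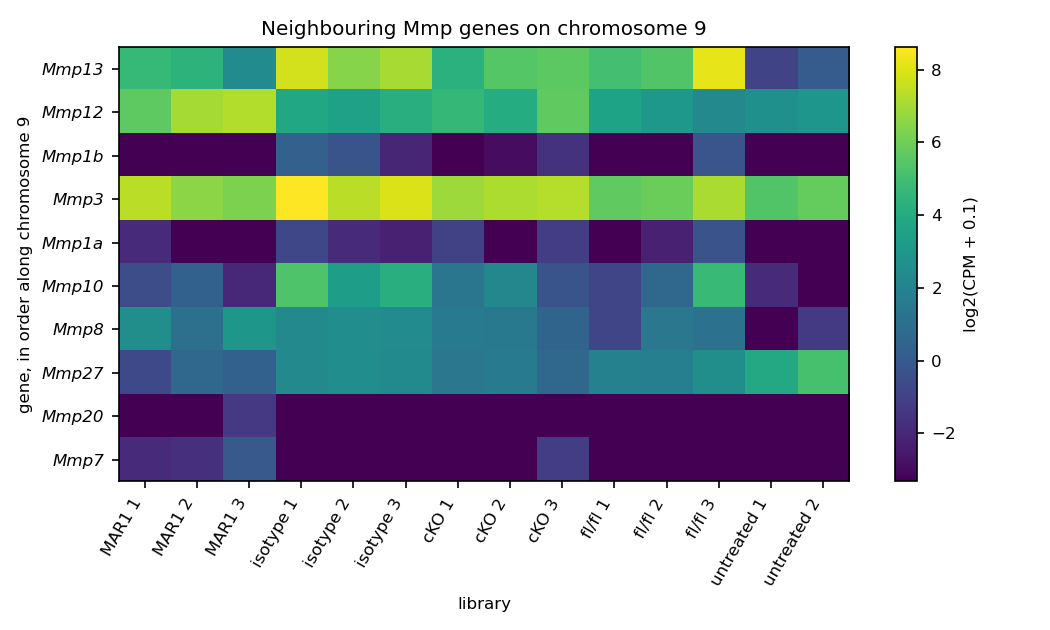
Log2(CPM + 0.1) of the 10 neighbouring Mmp genes, in their order along chromosome 9, in each of 14 libraries. Mmp13 and Mmp10 are highest in the isotype libraries and in fl/fl library 3, and Mmp12 in the MAR1-labelled libraries and cKO library 3.

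The inhibitors moved in opposite directions. Timp1, an inhibitor of most soluble enzymes that inflammation is known to induce, had 233, 87.3 and 42.7 CPM in MAR1-labelled libraries 1, 2 and 3, against 47.2, 18.3 and 40.6 CPM with isotype. Library 1 stood far above the rest, and library 3 lay inside the isotype range (log2 1.77 ± 0.52, adjusted p = 0.014, edgeR). Timp4 had 69.9, 62.3 and 58 CPM in the MAR1-labelled libraries, against 29.8, 25.6 and 27.6 CPM with isotype (2.29-fold higher, adjusted p = 0.023). With the receptor gene share as a covariate the direction of Timp4 turned, and the difference did not pass (log2 -0.33, adjusted p = 0.95, edgeR). Timp3 had 66.1, 15 and 33.7 CPM, against 137, 195 and 204 CPM (4.66-fold lower, log2 -2.22 ± 0.46, adjusted p = 0.0018). Timp2, which takes part in MMP2 activation at the cell surface, had 238, 98.6 and 91.8 CPM, against 335, 388 and 405 CPM (2.63-fold lower, adjusted p = 0.01). Timp2 and Timp3 lay below every isotype library in all 3 MAR1-labelled libraries.

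Of the 19 ADAMTS genes 3 rose and 4 fell, where 22.6% and 26.5% of all genes did so. Adamts2, the main procollagen N-proteinase of skin, had 37.6, 54.2 and 55.6 CPM in the MAR1-labelled libraries, against 154, 196 and 174 CPM with isotype (3.56-fold lower, adjusted p = 0.0044, edgeR). Adamts10, a protease of fibrillin microfibrils, fell 4.33-fold to 3.09, 3.52 and 3.31 CPM, against 13.3, 16.9 and 12.9 CPM with isotype (adjusted p = 0.011). Adamts12 fell 4.82-fold to 2.75, 1.11 and 3.31 CPM, against 10.5, 14.7 and 9.12 CPM with isotype (adjusted p = 0.013), and the versican-cutting protease gene Adamts9 2.28-fold to 5.33, 8.05 and 9.47 CPM, against 20.5, 15.9 and 15.7 CPM (adjusted p = 0.032). Adamts4, the aggrecanase that was higher after MC903, had 9.28, 16.4 and 26.5 CPM, against 23.5, 23.1 and 14.5 CPM with isotype, and the groups overlapped (adjusted p = 0.79). The widely expressed proteoglycanase gene Adamts5 had 77.8, 67 and 57.6 CPM, against 62.9, 64.7 and 59.7 CPM (log2 0.11 ± 0.34, adjusted p = 0.8).

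Leaving out 1 library at a time left 15 to 19 genes called, where 35.2% to 49.4% of all genes were called. Of the 22 calls, 11 held without any 1 library, those of Mmp2, Mmp9, Mmp11, Mmp12, Mmp13, Mmp19, Mmp27, Mmp28, Timp3, Adamts2 and Adamts10. The call of Timp1 was lost without MAR1-labelled library 1 and without isotype library 2. That of Mmp3 was lost without MAR1-labelled library 2 or 3 or isotype library 1. With a covariate for the receptor gene share (log2) none of the 22 calls was kept (0 of 20939 genes called in edgeR, 1537 at an unadjusted p under 0.05, among them 6 of the 45). The share did not overlap between these groups, so that fit can hardly tell it from the group. In that fit Mmp2 stood at -3.33 and Mmp12 at 0.71 on the log2 scale, and Timp4 turned to -0.33 (adjusted p = 0.95, edgeR). RLE scaling lost the calls of Mmp3, Adamts9 and Adamts12.

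The comparison of cKO with fl/fl skin addresses the loss of the IL-4 receptor alpha chain in Pdgfra-expressing cells during MC903 dermatitis. Mmp14, Mmp12 and Mmp16 rose, and no gene of the family fell at the threshold, 3 and 0 of 45, where 12.7% of all genes tested rose and 5.97% fell, 18.7% together (7 of the 45 were under an unadjusted p of 0.05). The median log2 fold change of the 45 genes was 0.08, against 0.03 over all genes. Mmp14 had 809, 401 and 326 CPM in cKO, against 75.6, 219 and 248 CPM in fl/fl. All 3 cKO libraries lay above every fl/fl library, cKO library 1 by far the most (2.83-fold, log2 1.5 ± 0.44, adjusted p = 0.03, edgeR). Mmp12 had 24.4, 17 and 51.8 CPM in cKO, against 12.2, 8.30 and 4.79 CPM in fl/fl (3.67-fold, log2 1.88 ± 0.49, adjusted p = 0.017). The receptor gene share was 1.49%, 0.467% and 2.58% in cKO libraries 1, 2 and 3, in the same order as Mmp12. Mmp16 was ordered in the opposite way and Mmp14 in neither, and a link to this share was not tested. The summed share of the macrophage markers was 0.077% to 0.106% in cKO, against 0.121% to 0.206% in fl/fl, and 4 of the 8 fell and 0 rose. Mmp16 had 3.44, 4.28 and 3.12 CPM in cKO, against 0.901, 0.335 and 0.946 CPM in fl/fl (4.97-fold, log2 2.31 ± 0.60, adjusted p = 0.018).

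Most other genes of the family overlapped between cKO and fl/fl: 6 of 45 lay wholly above and 1 wholly below, where 17% and 12.4% of all genes did so (29.4% in either direction). Mmp2 had 374, 339 and 68 CPM in cKO, against 114, 327 and 299 CPM in fl/fl, with 1 low library in each group (log2 0.08 ± 0.52, adjusted p = 0.94, edgeR). Mmp13 had 19.5, 44.4 and 49.5 CPM in cKO, against 33.3, 41.7 and 293 CPM in fl/fl (log2 -1.70 ± 0.80, adjusted p = 0.15), where fl/fl library 3 sets the mean. Mmp3 had 116, 144 and 159 CPM, against 52, 61.1 and 139 CPM (log2 0.73 ± 0.42, adjusted p = 0.23). Mmp9 had 13.3, 8.31 and 4.48 CPM, against 8.11, 12.8 and 21.3 CPM (log2 -0.69 ± 0.47, adjusted p = 0.31), and Mmp11 36.4, 28.1 and 2.83 CPM, against 4.12, 19.3 and 40.0 CPM (log2 0.09 ± 0.79). None of the 4 inhibitor genes passed. Timp1 had 41.8, 25.6 and 42.2 CPM in cKO, against 35.3, 50.7 and 39.3 CPM in fl/fl, and the ranges overlapped (log2 -0.19 ± 0.51). Timp2 had 299.7, 214 and 165 CPM in cKO, against 219.8, 377 and 285 CPM in fl/fl (log2 -0.38 ± 0.38), and Timp3 120.5, 120.3 and 105 CPM, against 80.6, 118 and 57.7 CPM (log2 0.43 ± 0.44). Timp4 had 39, 13.6 and 26.1 CPM in cKO, against 39.6, 39.4 and 20.1 CPM in fl/fl (log2 -0.33 ± 0.39), and 16.8 and 36.2 CPM in untreated skin. Adamts17 and Adamts18 lay wholly above fl/fl but did not pass (log2 2.19 ± 0.85 and 3.17 ± 1.13, adjusted p = 0.085 and 0.064).

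The 3 calls depended on single libraries. Without fl/fl library 2 none was left in edgeR (10 of the 45 at an unadjusted p under 0.05), where 12.8% of all genes were called. Without cKO library 2 there were 7 and without fl/fl library 3 there were 5, where 20.9% and 20.2% of all genes were called. Without cKO library 3 there were 2, since Mmp12 was lost, where 9.47% of all genes were called. Mmp14 lost its call without cKO library 1. No call was left in an edgeR fit of cKO and fl/fl libraries alone (4 under an unadjusted p of 0.05), with the skeletal muscle share as a covariate (7) or with the receptor gene share as a covariate (2). In the same order, 8.27%, 9.2% and 0.0669% of all genes were called. DESeq2 called 7 of the 44 it tested, all higher in cKO, where it called 29.9% of all genes. The 2 fl/fl libraries with salivary gland transcripts, 1 and 2, were also left out together, and no call was left (10 at an unadjusted p under 0.05, edgeR). With the receptor gene share as a covariate the log2 fold change of Mmp12 was -0.49, the opposite sign, and did not pass (adjusted p = 0.92, edgeR). The share did not overlap between cKO and fl/fl, so that fit can hardly tell it from the group.

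**Figure D4:**
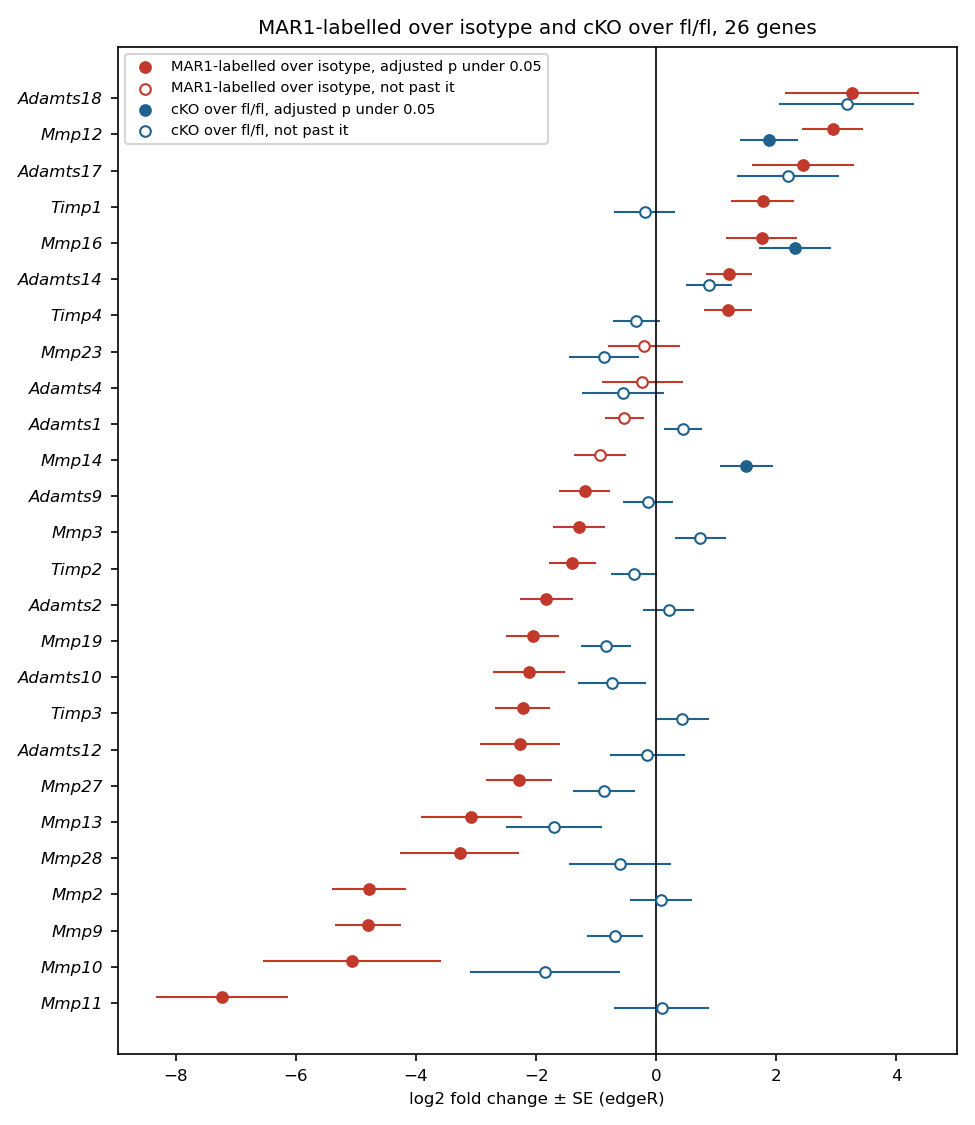
Log2 fold changes with standard errors of 26 genes, MAR1-labelled over isotype and cKO over fl/fl. Filled circles passed an adjusted p of 0.05. Mmp11 is at -7.23 in the first comparison and 0.09 in the second, Mmp2 at -4.78 and 0.08, and Mmp12 at 2.94 and 1.88.

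Whether the 2 effects differed was tested as the cKO effect minus the MAR1 effect. Of the 45 genes 5 differed, all with a higher value in the cKO comparison, where 6.14% of all genes differed in that direction and 1.82% in the other (7.96% together). They were Mmp2 (difference in log2 fold change 4.86 ± 0.78, adjusted p = 0.02, edgeR), Mmp9 (4.11 ± 0.70, adjusted p = 0.02), Mmp11 (7.32 ± 1.33, adjusted p = 0.02), Timp3 (2.65 ± 0.63, adjusted p = 0.031) and Mmp14 (2.44 ± 0.61, adjusted p = 0.035). For Mmp14 the effects had opposite signs, 1.5 in cKO over fl/fl and -0.94 in MAR1-labelled over isotype. Mmp12 was higher in both comparisons, and the difference between its effects did not pass (-1.06 ± 0.67, adjusted p = 0.31). Leaving out isotype library 1, 2 or 3 or MAR1-labelled library 3 left 0 of these calls in edgeR (10 of the 45 at an unadjusted p under 0.05 in each case). Of all genes, only 0.00479% to 0.00982% were called in these fits. Leaving out fl/fl library 2 left 2 and leaving out cKO library 1 left 3, where 0.619% and 2.4% of all genes were called. Leaving out fl/fl library 3 gave 10, where 23.3% of all genes were called.

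The MC903-treated control arms were set against each other to show how far the references of the experiments lie apart. Mmp9, Adamts1, Mmp3 and Mmp19 were lower in fl/fl than with isotype and none was higher, 4 and 0 of 45, where 3.97% of all genes were lower and 1.25% higher (5.22% together). The fl/fl libraries lay wholly above isotype for 1 of the 45 genes and wholly below for 16, where 12% and 20.5% of all genes did so (32.5% in either direction). Mmp9 had 8.11, 12.8 and 21.3 CPM in fl/fl, against 86.9, 173 and 92.5 CPM with isotype (8.37-fold lower, log2 -3.07 ± 0.51, adjusted p = 0.023, edgeR). Adamts1, a proteoglycanase induced in inflammation, had 20.7, 49.1 and 27.6 CPM, against 77.8, 81.4 and 89.4 CPM (2.55-fold lower, adjusted p = 0.039). Mmp3 was 3.25-fold and Mmp19 3.04-fold lower (adjusted p = 0.041 and 0.046). Mmp13 had 33.3, 41.7 and 293 CPM in fl/fl, with library 3 above every isotype library (log2 -0.26 ± 0.78, adjusted p = 0.89). Without any 1 of the isotype libraries, or without fl/fl library 2, 0 genes of the family were called in edgeR (10 to 12 at an unadjusted p under 0.05). Of all genes, 0% to 0.263% were called in these fits. Without fl/fl library 1 there was 1, where 0.37% of all genes were called. Without fl/fl library 3 there were 12, of which 11 were lower, where 15.2% of all genes were called.

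**Figure D5:**
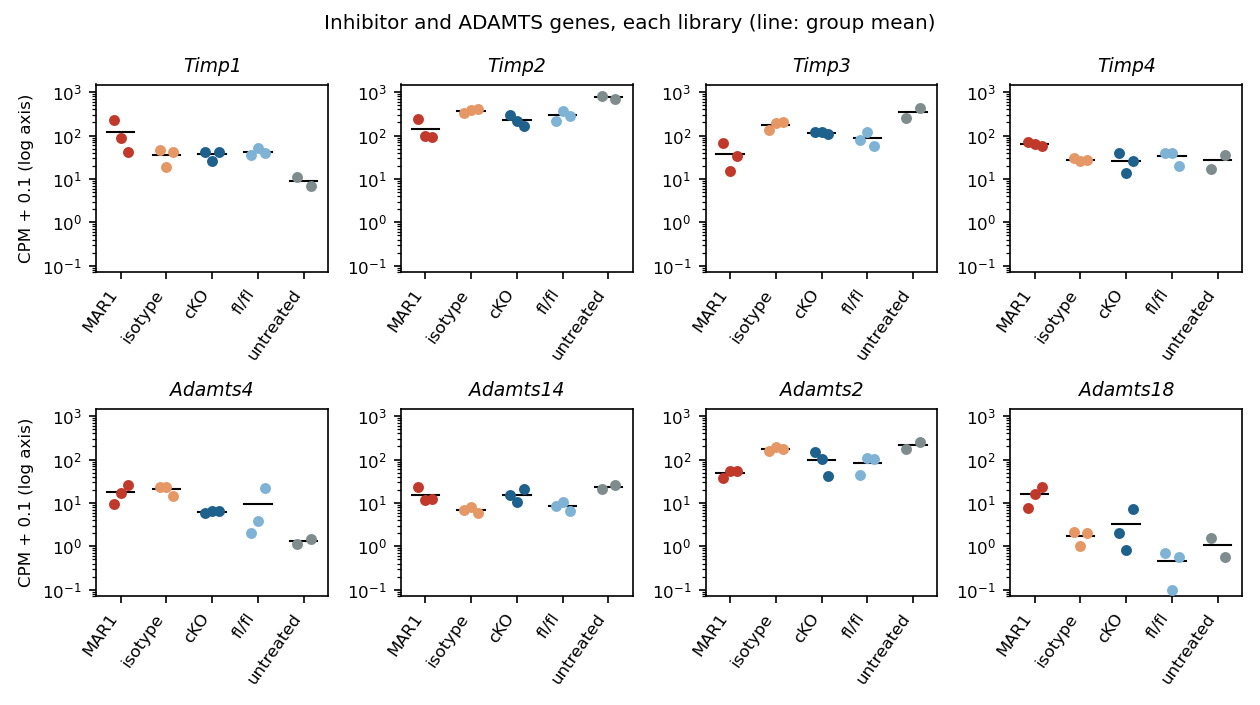
The 4 Timp genes and 4 Adamts genes in each library, as CPM plus 0.1 on a log axis, with a line at each group's mean of 2 or 3 libraries. Timp1 lies below 11 CPM in both untreated libraries and above 18 CPM in all others, and Timp2 and Timp3 are highest in untreated skin.

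Of 24 tested genes that activate or restrain metalloproteinases at the cell surface, 2 rose and 11 fell in the MAR1-labelled libraries against isotype, where 22.6% of all genes rose and 26.5% fell. The median log2 fold change was -1.05, against 0 over all genes. Among those that fell were Pcsk6, a proprotein convertase (-2.51 ± 0.46), Lcn2, a lipocalin that binds MMP9 (-3.67 ± 0.67), Tfpi2, a serine protease inhibitor of the matrix (-2.16 ± 0.40), and Pcolce, an enhancer of procollagen C-proteinase (-2.52 ± 0.48). With isotype against untreated skin Tfpi2 and the hyaluronan receptor gene Cd44 rose and Pcolce fell (log2 3.17, 1.89 and -2.36). That is 2 up and 1 down of 24, where 1.35% of all genes rose and 1.72% fell. None of the 24 passed in cKO against fl/fl (4 at an unadjusted p under 0.05, edgeR) or in fl/fl against untreated skin (5), and Tfpi2 was lower in fl/fl than with isotype. Of 19 related ADAM, astacin and ADAMTS-like genes tested, 5 rose and 7 fell in the MAR1-labelled libraries, where 22.6% and 26.5% of all genes did so. In cKO 1 rose, where 12.7% of all genes did, and 0 passed in either comparison with untreated skin (5 with isotype and 3 in fl/fl had an unadjusted p below 0.05 in edgeR). Adam8, a sheddase of inflammatory cells, averaged 9.13 ± 2.7 CPM in the MAR1-labelled libraries and 38.4 ± 9.4 CPM with isotype (SD, n = 3 each). The procollagen C-proteinase gene Bmp1 also fell (log2 -1.77 ± 0.41), and the non-catalytic Adam23 and Adam22 rose (log2 2.78 ± 0.53 and 2.53 ± 0.51). Adam22 averaged 7.27 ± 4.3 CPM in cKO and 2.11 ± 0.95 CPM in fl/fl (SD, n = 3 each).

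Of 26 matrix substrates, 2 rose and 15 fell in the MAR1-labelled libraries against isotype (median log2 fold change -1.51, against 0 over all genes), where 22.6% of all genes rose and 26.5% fell. The basement membrane genes Col4a2 and Col4a1 changed by -4.86 ± 0.68 and -3.05 ± 0.57 on the log2 scale, Col17a1, of hemidesmosomes, by -3.56 ± 0.52, and Thbs1, the thrombospondin gene, by -2.74 ± 0.42. In cKO against fl/fl 2 rose and 0 fell, where 12.7% and 5.97% of all genes did so, among them Col7a1, the anchoring fibril collagen, at 109.7 ± 19 CPM in cKO and 18.7 ± 9.9 CPM in fl/fl (SD, n = 3 each, adjusted p = 0.0033, edgeR). Tnc, the tenascin gene of wounded and inflamed matrix, rose with isotype (log2 5.57 ± 0.84) and in fl/fl (log2 4.58 ± 0.79) against untreated skin, with Thbs1 as the other gene that rose with isotype (log2 2.35 ± 0.48). The collagen-binding matrix gene Sparc fell with isotype (log2 -2.36 ± 0.60), and Tnc was the 1 substrate gene of 26 that passed in fl/fl. Of 20 genes known to induce the family, 2 rose and 8 fell in the MAR1-labelled libraries, where 22.6% and 26.5% of all genes did so. Among those that fell were Tgfb1 (log2 -1.39 ± 0.34), Il1a (log2 -4.57 ± 1.11) and the EGF receptor ligand gene Areg (log2 -2.83 ± 0.76), while Il6 rose (log2 2.02 ± 0.50). In cKO against fl/fl 0 rose and 3 fell, where 12.7% of all genes rose and 5.97% fell. They were Tgfb1 (log2 -1.44 ± 0.34), Ets1 (log2 -2.27 ± 0.59) and Fosb (log2 -4.97 ± 1.55). The ETS factor gene Etv4 rose with isotype and in fl/fl against untreated skin (log2 2.45 ± 0.52 and 2.79 ± 0.53), and Il6 rose with isotype only in the test (log2 2.51 ± 0.60, and 2.45 ± 0.59 with an adjusted p of 0.054 in fl/fl).

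Further values complete the genes above, and none of the cKO against fl/fl differences among them passed. Of the metalloproteinases, Mmp10 had 2.45, 4.51 and 0.766 CPM in cKO, against 0.464, 1.56 and 26.2 CPM in fl/fl. Mmp19 had 23.4, 28.4 and 16.7 CPM in cKO, against 15.8, 54.7 and 52 CPM in fl/fl, and Mmp27 2.59, 3.04 and 1.53 CPM, against 3.74, 3.48 and 5.94 CPM. The first pair overlapped between cKO and fl/fl, and Mmp27 lay wholly below fl/fl in cKO. Mmp23 had 6.10, 4.13 and 1.2 CPM in the MAR1-labelled libraries and 14.5, 10.04 and 6.12 CPM in cKO, against 26.3, 24.9 and 5.05 CPM in fl/fl. Mmp28 had 2.48, 7.85 and 0.412 CPM in cKO, 2.54, 5.13 and 8.75 CPM in fl/fl and 11.2 and 10.8 CPM in untreated skin. In untreated skin Mmp2 had 327 and 332 CPM, Mmp14 240.4 and 251 CPM, Mmp12 6.34 and 7.76 CPM and Mmp16 0.868 and 1.78 CPM.

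Of the ADAMTS genes, Adamts2 had 149, 102 and 41.5 CPM in cKO, 43.3, 107 and 103 CPM in fl/fl and 177 and 256 CPM in untreated skin. Adamts14, also a procollagen N-proteinase gene, had 15.1, 10.3 and 20.6 CPM in cKO, against 8.35, 10.2 and 6.47 CPM in fl/fl. Among the proteoglycanases, Adamts4 had 5.67, 6.51 and 6.42 CPM in cKO, against 1.97, 3.77 and 21.5 CPM in fl/fl, and without fl/fl library 3 its log2 fold change was 1.51 with an adjusted p of 0.045 (edgeR), against -0.55 with all libraries. Adamts1 had 63.5, 66.2 and 42.4 CPM in the MAR1-labelled libraries, 32.9, 52.5 and 47.4 CPM in cKO and 43.9 and 45.8 CPM in untreated skin. Adamts9 had 9.79, 8.99 and 4.59 CPM in cKO, 8, 12.2 and 5.61 CPM in fl/fl and 7.67 and 9.82 CPM in untreated skin. For both genes the cKO and fl/fl ranges overlapped. Adamts10 had 23.9, 17.5 and 7.89 CPM in cKO, 47.5, 25.8 and 9.10 CPM in fl/fl and 19.4 and 68.8 CPM in untreated skin. Adamts12 had 8.47, 13 and 2.53 CPM in cKO, 5.51, 16.8 and 4.34 CPM in fl/fl and 20.9 and 15.4 CPM in untreated skin. Both of these overlapped between cKO and fl/fl as well, while Adamts14, Adamts17 and Adamts18 lay wholly above fl/fl in cKO. Adamts17 had 0.638, 1.18 and 3.30 CPM in cKO, 0.164, 0.379 and 0.561 CPM in fl/fl and 0.656 and 0.878 CPM in untreated skin, and Adamts18 had 1.95, 0.719 and 7.07 CPM in cKO, 0.601, 0 and 0.473 CPM in fl/fl and 1.45 and 0.475 CPM in untreated skin.

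The remaining genes of the family passed in no comparison. Below a mean of 1 CPM over the 14 libraries were Mmp1a, Mmp1b, Mmp7, Mmp20, Mmp21, Mmp24, Adamts3, Adamts13, Adamts16 and Adamts19. The matrilysin gene Mmp7 had 10 counts in the MAR1-labelled libraries and 6 in cKO and was at 0 in the other groups. Mmp15, Mmp17 and Mmp25, membrane-type enzymes, had 13.1, 4.44 and 1.84 CPM over all libraries, and Mmp8 3.15 CPM. Of the ADAMTS genes, Adamts5 had 68.3 CPM, Adamts15 35.4 CPM and Adamts7 9.58 CPM, and Adamts6, Adamts8 and Adamts20 had 1.62, 1.04 and 1.10 CPM. Adamts15, a versican-cutting protease, averaged 61.5 ± 21 CPM in the MAR1-labelled libraries and 32.1 ± 5.8 CPM with isotype (SD, n = 3 each), and the difference did not pass (log2 0.94 ± 0.41, adjusted p = 0.069, edgeR).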

How the data were processed

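RNA of sectioned frozen skin was sequenced from polyA RNA, and the authors deposited 1 table of estimated counts per gene and library, which need not be whole. Per the submitters' processing notes, Salmon 1.2.1, DESeq2 1.44.0 and the build GRCm39 were used, with no role stated, and strand handling is not given in the sources used here. The values were rounded to whole numbers. A row that names no gene, at most 0.913% of counts, was left out. The 14 libraries, of 5728921 to 55291463 counts, were fitted together as 5 group means in edgeR 4.0.16 (R 4.3.3; TMM scaling, filterByExpr, robust quasi-likelihood test, Benjamini-Hochberg over 20939 genes, two-sided, adjusted p under 0.05), with 9 residual degrees of freedom and a common dispersion of 0.361. CPM are TMM-scaled. The ± on a log2 fold change is a standard error from the fit, which includes the spread between libraries. Floors cover counting error only.

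The genes were every Mmp, Adamts and Timp symbol. Members and lists were chosen with earlier results of these data known. Values in every library are given for the 4 Timp genes and for members with a mean of at least 1 CPM that passed in any comparison or had 1 of the 6 smallest p-values of the family in one, 26 in all. From the 4 lists of other genes, at most 4 with the smallest p were named. Mmp8, Mmp21, Adamts5 and Adamts15 were described in more detail after their values were seen. Alternatives were RLE scaling, DESeq2 1.42.0, other filters, other sets of libraries, a replicate block and covariates, and figures were drawn with matplotlib 3.10.9. Simulated counts took the real depths, each gene's mean over all 14 libraries in every group, and changes in few genes. On these the fit of MAR1-labelled against isotype libraries recovered 1.49% of 2-fold, 23.1% of 4-fold and 76.6% of 16-fold changes, with 1 false call among 20340 genes. In the real comparison 49% of all genes were called, so neither the recovery nor the false calls carry over to it. Exon lengths came from GENCODE M21, whose build differs from that of the table, and promoters from RefSeq on GRCm38.p6.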

Additional observations from a re-analysis of the deposited data

Results flagged for a closer look

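For 5 genes the effect in cKO over fl/fl differed from that in MAR1-labelled over isotype libraries by the interaction test (edgeR, adjusted p under 0.05). The difference in log2 fold change was 4.86 for Mmp2, 4.11 for Mmp9, 7.32 for Mmp11, 2.65 for Timp3 and 2.44 for Mmp14. No library of either comparison was shared, but the MAR1-labelled libraries also held the highest receptor gene shares and the lowest totals. With the receptor gene share as a covariate all 5 of these calls were kept among 8 of 45, where 18.1% of all genes were called. With the skeletal muscle share as a covariate 0 genes of the family were called in edgeR (8 at an unadjusted p under 0.05), where 0% of all genes were called. The part of depth was not tested.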

How the results depend on the processing

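Of the 45 genes, the counts called were 22 in MAR1-labelled against isotype, 3 in cKO against fl/fl, 7 in isotype against untreated, 2 in fl/fl against untreated, 4 in fl/fl against isotype and 5 in the difference of the effects. Counts beyond 1.5 times these were as follows, and the causes were not tested. RLE scaling gave 1 in fl/fl against untreated and 3 in the difference, and moved the median of all genes by 0.12 in cKO against fl/fl and -0.46 in the difference. DESeq2 gave 7 in cKO against fl/fl, 13 in isotype and 11 in fl/fl against untreated, 8 in fl/fl against isotype and 8 in the difference. In the same order it called 29.9%, 11.9%, 10.6%, 18.2% and 20.6% of all genes. Fitting only the groups compared gave 0 in cKO against fl/fl, 19 in isotype and 0 in fl/fl against untreated, and 1 in fl/fl against isotype. Of all genes, 8.27%, 20.3%, 0% and 2.72% were called in these fits. With the untreated libraries summed, isotype against untreated gave 0 and fl/fl against untreated 1. The replicate numbers did not pair the libraries (correlations of same-numbered deviations from -0.144 to 0.0771), and a replicate block gave 21 in MAR1-labelled against isotype, 2 in cKO against fl/fl, 3 in isotype and 1 in fl/fl against untreated, 1 in fl/fl against isotype and 3 in the difference. The receptor gene share as a covariate gave 0 in MAR1-labelled against isotype, 0 in cKO against fl/fl, 1 in fl/fl against untreated, 1 in fl/fl against isotype and 8 in the difference. It turned Timp4 to -0.33 in the first and Mmp12 to -0.49 in the second (log2, adjusted p = 0.95 and 0.92, edgeR). In both of these comparisons the share did not overlap between the groups, so the fit can hardly tell it from the group. The skeletal muscle share gave 0 in cKO against fl/fl, 4 in isotype and 1 in fl/fl against untreated, 1 in fl/fl against isotype and 0 in the difference. Without fl/fl libraries 1 and 2, cKO against fl/fl, fl/fl against isotype and the difference gave 0. Leaving out 1 library gave 15 to 19 in MAR1-labelled against isotype, 0 to 7 in cKO against fl/fl, 0 to 2 in isotype and 0 to 3 in fl/fl against untreated, 0 to 12 in fl/fl against isotype and 0 to 10 in the difference. Adamts4, not called in cKO against fl/fl (log2 -0.55), ranged from -0.92 to 1.51 over these and stood at -1.50 without fl/fl libraries 1 and 2. Without fl/fl library 3 it was called higher in cKO (log2 1.51, adjusted p = 0.045, edgeR). Neither filter moved a count by more than 1.5 times.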
